A study of Mus musculus with 6 samples.

Results

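The mitosis and spindle genes are a set of 37 genes that act when a cell condenses its chromosomes, builds a spindle and divides. They were followed in colon epithelium of mice that lack the beta-catenin co-activators BCL9 and BCL9L in the gut, and of wild-type mice. Members were every probe set of the Affymetrix Mouse Genome 430 2.0 array whose annotation gives exactly 1 gene symbol that is in the set. A probe set is a small group of short probes that reads 1 transcript. This gave 82 of the 45101 probe sets, from 36 of the 37 genes. Ccnb1, the remaining gene, was not analysed here.

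There were 6 arrays. Knockouts 1, 2 and 3 (genotype vil-Cre-Bcl9-/-/Bcl9l-/-) came from pools of 3, 2 and 2 mice, and wild types 4, 5 and 6 from pools of 3 mice each. All mice were 12 weeks old, on a mixed background of 129SvEv, C57BL/6 and DBA/2, so strain alleles may differ between pools. The villin promoter drives Cre in the intestinal epithelium. The labels name vil-Cre for the knockouts alone, so an effect of Cre cannot be told apart from loss of both co-activators. Epithelium was released with EDTA and pelleted without a sort. In such bulk RNA, fewer cells of a type and less RNA per cell cannot be told apart, so a higher mitotic level may be more dividing cells or more mitotic RNA per cell.

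Dividing cells of the colon sit in the lower crypt, where Wnt signalling through beta-catenin keeps stem and progenitor cells cycling. Mitotic genes are transcribed late in the cycle, in G2 and M phase. The B-MYB and MuvB complex and the factor FOXM1 switch them on, and the DREAM complex keeps them off in resting cells. Both complexes are known to act through the cell cycle genes homology region (CHR), with the letters TTTGAA or a close variant, and neighbouring CCAAT boxes bind the factor NF-Y.

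These letters are shown first because most of the members examined hold them and the choice of members did not use them. RefSeq promoter windows of assembly GRCm38.p6, which run from 250 bases before the annotated start of transcription to 50 after it, were matched by gene number. They covered 31 members with 34 windows. Aurkb, Ccna2, Ccnb1, Foxm1, Kif20a and Tpx2 had no window. TTTGAA, searched on both strands, was found in 28 of the 34 windows (82.4%), against 17.9% of all 32851 windows. CCAAT, also on both strands, was found in 26 (76.5%), against 37.4% of all windows. At least 2 copies of CCAAT were present in 18 windows (52.9%), against 11.7% of all. Both motifs occurred together in 23 windows (67.6%), against 6.95% of all. Copies and matches of the 2 motifs may share bases. The CHR variant TTTAAA, on both strands, was in 8 windows (23.5%), against 13.2% of all.

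Promoters of 6 members follow, written 5′ to 3′ on the strand of the gene, from 200 bases before the start of transcription to 30 after it, with matches to TTTGAA or CCAAT on either strand in capitals. Racgap1, Cenpf, Nuf2 and Ttk are the members with every knockout array above every wild-type array, Ccnb2 and Ube2c hold several CCAAT copies, and Nuf2 has neither motif.
Racgap1 (chr15:99651627-99651856, minus strand): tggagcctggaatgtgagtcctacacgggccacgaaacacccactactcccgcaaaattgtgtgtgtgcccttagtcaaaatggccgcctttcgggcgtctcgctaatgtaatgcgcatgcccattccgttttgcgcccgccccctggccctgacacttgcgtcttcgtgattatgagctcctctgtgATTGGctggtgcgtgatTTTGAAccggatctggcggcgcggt
Cenpf (chr1:189688057-189688286, minus strand): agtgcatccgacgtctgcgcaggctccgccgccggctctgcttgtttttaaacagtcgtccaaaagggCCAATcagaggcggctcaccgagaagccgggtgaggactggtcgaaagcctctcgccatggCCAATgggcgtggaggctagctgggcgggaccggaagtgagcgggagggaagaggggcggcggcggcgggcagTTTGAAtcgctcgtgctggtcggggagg
Ttk (chr9:83834489-83834718, plus strand): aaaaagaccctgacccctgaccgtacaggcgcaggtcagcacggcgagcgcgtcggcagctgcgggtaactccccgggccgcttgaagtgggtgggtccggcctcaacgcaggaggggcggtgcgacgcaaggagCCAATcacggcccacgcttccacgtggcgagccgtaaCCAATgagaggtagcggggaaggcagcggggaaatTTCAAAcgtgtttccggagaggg
Ccnb2 (chr9:70421525-70421754, minus strand): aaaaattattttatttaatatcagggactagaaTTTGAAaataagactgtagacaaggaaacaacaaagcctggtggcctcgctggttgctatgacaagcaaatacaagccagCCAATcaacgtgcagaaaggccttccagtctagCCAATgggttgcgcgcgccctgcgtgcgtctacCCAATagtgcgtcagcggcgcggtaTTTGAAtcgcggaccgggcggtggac
Ube2c (chr2:164769729-164769958, plus strand): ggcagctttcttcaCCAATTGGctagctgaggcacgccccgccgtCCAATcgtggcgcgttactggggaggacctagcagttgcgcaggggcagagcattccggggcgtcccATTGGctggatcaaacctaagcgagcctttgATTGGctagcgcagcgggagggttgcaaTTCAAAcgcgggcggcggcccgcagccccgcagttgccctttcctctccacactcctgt
Nuf2 (chr1:169531435-169531664, minus strand): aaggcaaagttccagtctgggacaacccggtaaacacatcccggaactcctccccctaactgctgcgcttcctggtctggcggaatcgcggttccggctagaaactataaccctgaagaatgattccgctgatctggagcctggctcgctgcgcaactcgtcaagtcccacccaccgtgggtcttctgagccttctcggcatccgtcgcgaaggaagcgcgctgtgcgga

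In Racgap1, Cenpf, Ttk and Ccnb2 a TTTGAA match began 3 to 8 bases into the transcript, counting the first transcribed base as 1. Its first base was at 6 in Racgap1, 3 in Cenpf, 8 in Ttk and 5 in Ccnb2, which has another at -167. In Ube2c it began at -29. Over the 34 windows there were 35 TTTGAA matches with a median position of 3, and 63 CCAAT matches with a median of -68. The windows of Cep55, Ect2 and Prc1 overlap in pairs, so these matches are 31 distinct TTTGAA sites and 59 distinct CCAAT sites. A TTTGAA match began between -40 and 40 in 25 of 34 windows (73.5%), against 4.16% of all windows, an interval chosen after the positions were seen. CCAAT began in the same interval in 16 windows (47.1%), against 11.2% of all windows. Birc5, Bub1, Cenpe, Nek2, Nuf2 and Nusap1 had no TTTGAA in the window, and Birc5, Nuf2 and Nusap1 had no CCAAT either. A match describes the letters only and is not a binding measurement.

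**Figure D1:**
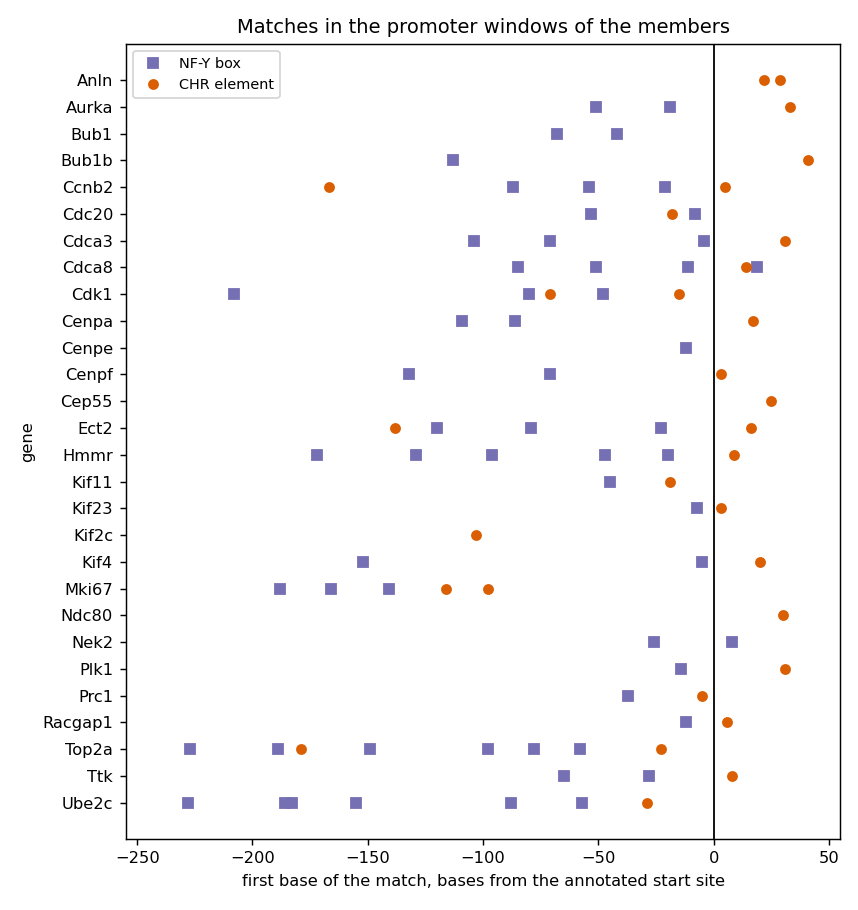
Position of each match in the promoter windows of the 28 members with a match, in bases from the annotated start of transcription (vertical line); where a member has several windows, the one with the lowest coordinate is drawn. Circles mark the CHR element and squares the NF-Y box; more circles lie right of the start than left of it, and most squares lie to its left.

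The brightest probe sets of the targeted genes did not average lower in the knockout arrays. Bcl9 read 7.09, 7.16 and 7.58 in knockout arrays, against 7.42, 6.85 and 7.24 in wild-type arrays (log2 expression values), and Bcl9l read 8.08, 8.27 and 8.11, against 7.84, 7.76 and 8.21 in wild-type arrays. The groups overlapped for both genes and for each of their 3 further probe sets, whose differences ran from -0.20 to 0.15. Which exons were deleted and whether these probes read them was not established here, so the arrays do not check the genotype labels, on which every direction rests.

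The comparison asks whether mitotic genes differ in healthy colon epithelium when both co-activators are missing. Values are the authors' log2 expression values, so a difference of 1 is a doubling, and each gene is read through its brightest probe set unless stated. No member passed limma's test across all 18194 genes at an adjusted p under 0.05 (0 of 36, smallest adjusted p = 0.953), and the background in that fit was 0% of genes called. Knockout was above wild type for 35 of the 36 members, with a median difference of 0.29 and a range of -0.30 to 0.58. Over all genes 52.2% lay above 0 and the median difference was 0.01. Among genes brighter than the median gene, as 35 of the members were, 62.5% lay above 0 with a median of 0.05. At an unadjusted p under 0.05 there were 5 members, all higher in knockout, where 4.71% of all genes lay under that p and 2.69% on the higher side. All 3 knockout arrays exceeded all 3 wild-type arrays for 4 members and lay below them for 0, against 5.50% and 4.83% of all genes and 10.3% in both directions together.

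**Figure D2:**
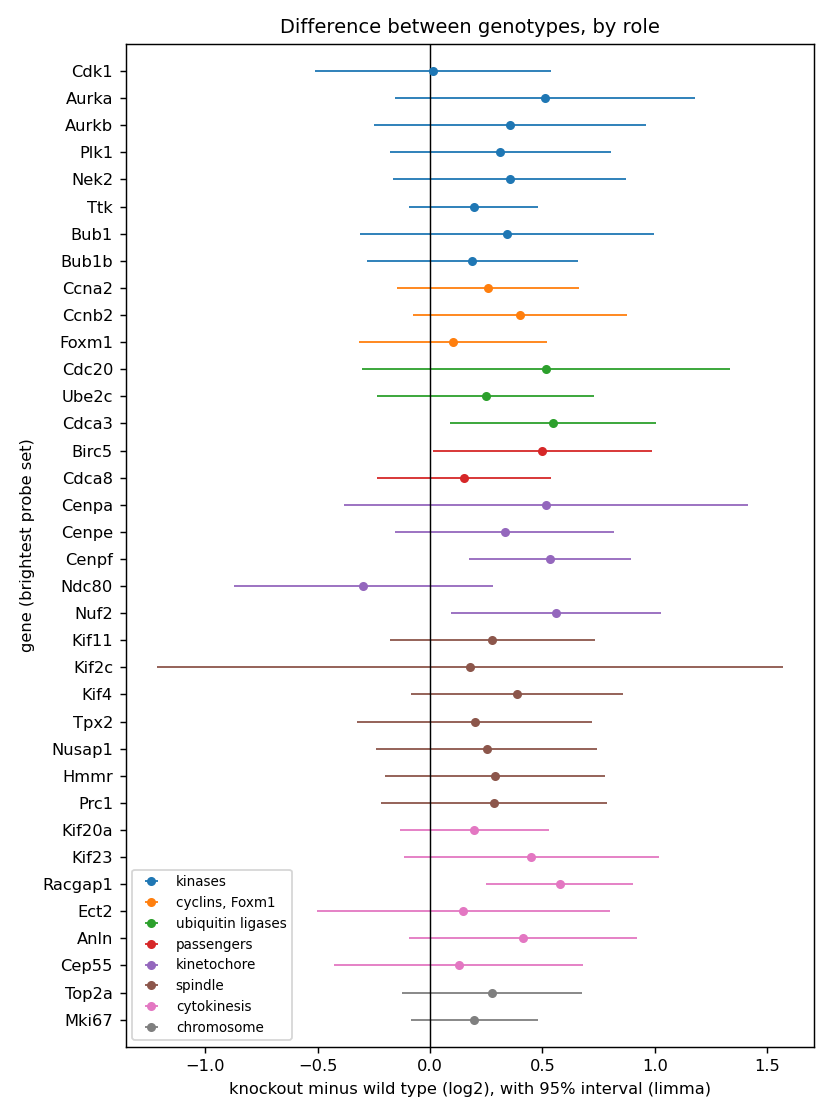
Difference of each of the 36 members, in log2 units and with wild type subtracted, grouped by role from top to bottom; points are limma estimates from 3 knockout and 3 wild-type arrays and bars are 95% intervals. All points but Ndc80 lie right of 0, and the intervals of 5 members, Racgap1, Cenpf, Nuf2, Cdca3 and Birc5, lie wholly above it.

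The genotype means hide a large spread among the knockouts. The level of the members in an array, taken as the median over the 36 genes of the value minus each gene's 6-array mean, was 0.06, -0.16 and 0.51 in knockouts 1, 2 and 3, against -0.17, -0.16 and -0.11 in wild types 4, 5 and 6. Knockout 3 stood alone at the top, and knockout 2 lay among the wild types. Knockout 3 was the highest of the 6 arrays for 32 members (88.9%), against 15.2% of all genes. It exceeded every wild-type array for 35 members, as knockout 1 did for 21 and knockout 2 for 7, where over all genes these shares were 24.9%, 30.0% and 21.5%. Above the wild-type mean, the median member stood 0.68 higher in knockout 3, 0.21 in knockout 1 and 0.0015 in knockout 2.

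Knockout 2 was the lowest knockout for 27 members (75.0%), against 39.0% of all genes, and both other knockouts exceeded all 4 remaining arrays for 20 members (55.6%), against 9.38% of all genes. The median SD of a member was 0.36 in the knockouts and 0.19 in wild type, where that of all genes was 0.16 in the knockouts and 0.18 in wild type. Without knockout 3 the median difference of the members was 0.14, with 30 of 36 above 0. In that limma fit 2 members had an unadjusted p under 0.05, as did 662 of all 18194 genes. Without knockout 2 the median difference was 0.44, with 35 above 0. There 13 members had an unadjusted p under 0.05, as did 885 of all 18194 genes. Knockouts 2 and 3 were each pools of 2 mice, and the part of pool size in this spread was not tested.

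**Figure D3:**
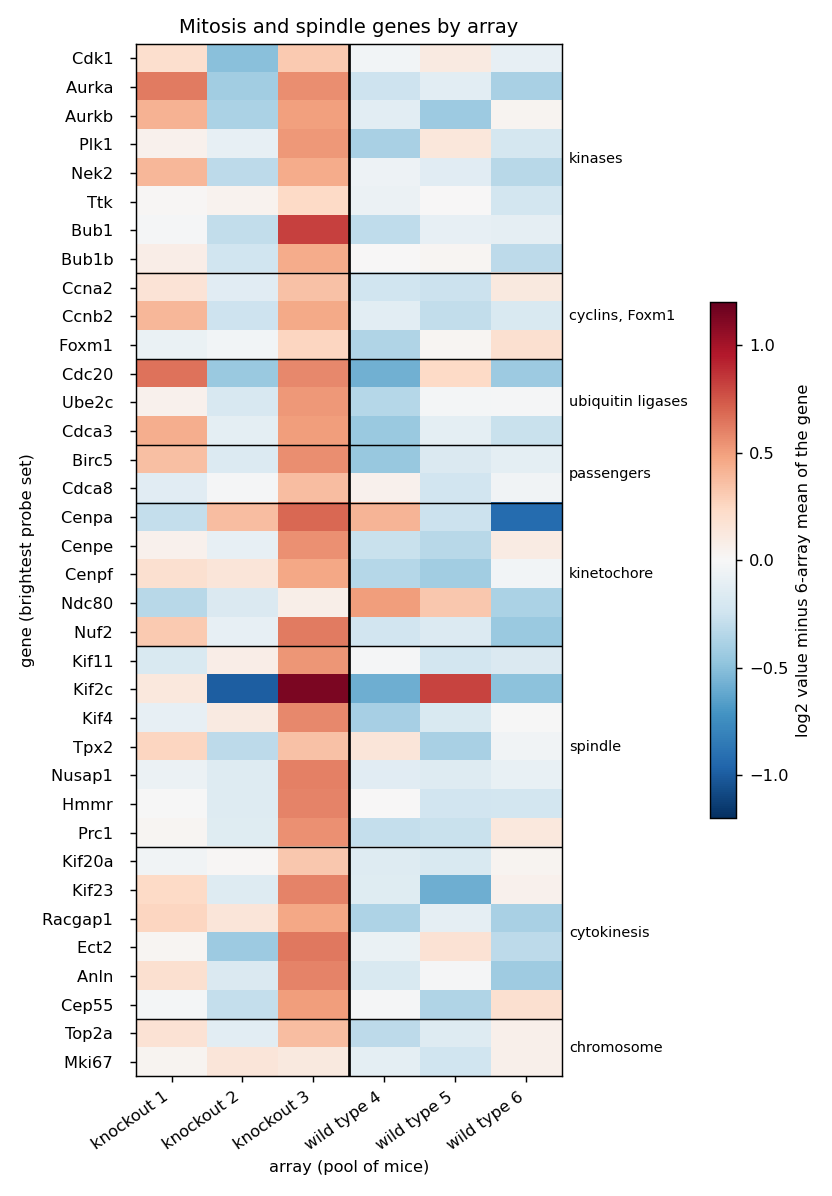
Value of each member in each array minus its own 6-array mean (log2), red above and blue below the mean, with the 3 knockouts left of the 3 wild types and genes grouped by role. The column of knockout 3 is red for nearly every gene, and knockout 2 is mostly pale blue. Ndc80 is highest in wild type 4, Mki67 in knockout 2, and Aurka and Cdc20 in knockout 1. Kif2c is deep blue in knockout 2 and red in wild type 5 as well as knockout 3.

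Among the mitotic kinases all 8 lay above 0, with a median difference of 0.33. Cdk1, the kinase that drives entry into mitosis with its cyclins, read 9.14, 8.43 and 9.25 in knockout arrays, against 8.90, 9.04 and 8.84 in wild-type arrays. The genotypes overlapped, with knockout 2 the lowest of the 6 arrays, and the difference was 0.01 (95% interval -0.51 to 0.54). Plk1, which matures the centrosomes and promotes mitotic entry and exit, read 7.87, 7.73 and 8.34 in knockout arrays, against 7.43, 7.96 and 7.61 in wild-type arrays. Here too the groups overlapped, and the difference was 0.31 (standard error, SE, 0.21, limma adjusted p = 0.953).

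Ttk, the checkpoint kinase also called MPS1, read 7.66, 7.69 and 7.89 in knockout arrays, against 7.57, 7.65 and 7.42 in wild-type arrays. All knockouts were above all wild types, by as little as 0.01 between the nearest arrays, and the difference was 0.20 (SE 0.12). Its other probe set differed by -0.15. Aurka, which acts at the spindle poles, had its highest values in knockouts 1 and 3, at 8.83 and 8.76, while knockout 2 at 7.78 was below all wild types (7.95, 8.07 and 7.81), a difference of 0.51 (SE 0.28). Aurkb, the kinase of the chromosomal passenger complex, differed by 0.36, and its other probe set by 0.69. That other Aurkb probe set read 6.77, 6.55 and 7.63 in knockout arrays, against 6.35, 6.44 and 6.08 in wild-type arrays, without overlap (limma adjusted p = 0.991 over all probe sets). Nek2, a centrosome kinase, differed by 0.36, and the checkpoint kinases Bub1 and Bub1b by 0.34 and 0.19. Their other probe sets differed by 0.22, 0.24 and -0.22 for Nek2, by -0.38 for Bub1, and by 0.40 and -0.10 for Bub1b.

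Of the cyclins and their activator, Ccnb2, a B-type cyclin of Cdk1, read 9.53, 8.88 and 9.59 in knockout arrays, against 9.01, 8.84 and 8.95 in wild-type arrays. Knockouts 1 and 3 stood above every other array, and knockout 2 lay within wild type. The difference was 0.40 (SE 0.20, limma adjusted p = 0.953). Ccna2, the cyclin of S and G2 phase, differed by 0.26, and by 0.40 in its other probe set, where the groups did not overlap. Foxm1, the transcription factor that drives many of these genes, read 6.96, 7.01 and 7.30 in knockout arrays, against 6.68, 7.06 and 7.23 in wild-type arrays. The groups overlapped, the difference was 0.10 (95% interval -0.32 to 0.52), and the other Foxm1 probe sets differed by 0.00098 to 0.26.

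Ubiquitin ligase factors and passenger complex subunits held 2 of the 5 members with an unadjusted p under 0.05, Cdca3 and Birc5. Cdca3, which is part of a ubiquitin ligase that degrades the CDK1 inhibitor WEE1, read 10.02, 9.46 and 10.09 in knockout arrays, against 9.14, 9.47 and 9.32 in wild-type arrays. Only knockout 2 and wild type 5 crossed, and the difference was 0.55 (SE 0.19, limma adjusted p = 0.953). Birc5, or survivin, a subunit of the passenger complex, read 9.86, 9.34 and 10.06 in knockout arrays, against 9.05, 9.33 and 9.38 in wild-type arrays. Knockout 2 was again the array that overlapped, and the difference was 0.50 (SE 0.21). Cdca8, or borealin, of the same complex, differed by 0.15, 0.36 and 0.40 in its 3 probe sets.

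Cdc20, which activates the anaphase-promoting complex, differed by 0.52 (SE 0.35) and had high values in knockouts 1 and 3 (9.97 and 9.90) and in wild type 5 (9.56). Its other probe sets differed by 0.14 and 0.40. Ube2c, the conjugating enzyme of that complex, differed by 0.25.

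The 5 kinetochore genes included 2 of the 4 non-overlapping members and the only member below 0. Over all genes, 5.50% had every knockout array above every wild-type array. Cenpf, a large protein of the outer kinetochore, read 8.56, 8.51 and 8.83 in knockout arrays, against 8.02, 7.95 and 8.33 in wild-type arrays. All 3 knockouts were above all 3 wild types, and the difference was 0.53, or 1.45-fold (SE 0.15, limma adjusted p = 0.953). It ran from 0.43 without knockout 3 to 0.65 without wild type 6. Other Cenpf probe sets differed by 0.47 and 0.20, and in both the groups overlapped.

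Nuf2, a subunit of the NDC80 complex that grips microtubules, read 7.22, 6.81 and 7.53 in knockout arrays, against 6.67, 6.74 and 6.46 in wild-type arrays. The groups again did not overlap, with knockout 2 close to wild type, and the difference was 0.56 (SE 0.20). Its partner Ndc80 read 8.12, 8.28 and 8.52 in knockout arrays, against 8.96, 8.78 and 8.08 in wild-type arrays, so that the difference was -0.30 (95% interval -0.87 to 0.28). Wild types 4 and 5 were above all knockouts and wild type 6 was below them. Cenpa, the centromere variant of histone H3, differed by 0.51 with a wide interval (-0.38 to 1.41), and Cenpe, a kinetochore kinesin, by 0.33; other probe sets of Cenpa differed by 0.19 and -0.21 and that of Cenpe by -0.0033.

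The 7 spindle genes all lay above 0, with a median of 0.28. Kif4, a chromosome-bound kinesin, read 6.30, 6.51 and 6.97 in knockout arrays, against 6.00, 6.21 and 6.39 in wild-type arrays, a difference of 0.39 (SE 0.20). Knockout 3 was set apart, and knockout 1 lay within wild type. Kif2c, a kinesin that takes microtubules apart, spread more than any other member, with 8.01, 6.89 and 9.01 in knockout arrays, against 7.30, 8.69 and 7.39 in wild-type arrays. In this brightest probe set knockout 2 was the lowest and knockout 3 the highest array, and the difference of 0.18 had an interval of -1.21 to 1.57. Other Kif2c probe sets differed by 0.02, 0.14 and 0.40. The one at 0.02 had an SD of 0.37 in knockout arrays, against 0.09 in wild-type arrays. There knockout 1 was the lowest and knockout 3 the highest array.

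Kif11, the motor that pushes spindle poles apart, differed by 0.28, Tpx2, which activates AURKA on microtubules, by 0.20, Nusap1, which bundles spindle microtubules, by 0.25, Prc1, which crosslinks the central spindle, by 0.29 and Hmmr, a spindle assembly protein, by 0.29. Other Kif11 probe sets differed by -0.01 and 0.33. One of the 5 Hmmr probe sets read 7.92, 7.27 and 7.70 in knockout arrays, against 6.81, 7.03 and 6.91 in wild-type arrays. The groups did not overlap, and this difference of 0.72 (SE 0.18, limma adjusted p = 0.991 over all probe sets) was the highest of the 82. The other Nusap1 probe set went the opposite way, with 4.97, 5.01 and 5.11 in knockout arrays, against 5.70, 6.03 and 5.36 in wild-type arrays. It was the one member probe set with every knockout below every wild type, at -0.67 (SE 0.18), and it was dimmer than the median probe set.

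All 6 cytokinesis genes lay above 0, with a median of 0.30. Racgap1, the GTPase-activating subunit of centralspindlin, had the smallest unadjusted p of the members (0.0042). It read 8.07, 7.96 and 8.27 in knockout arrays, against 7.44, 7.70 and 7.42 in wild-type arrays, 1.49-fold higher (0.58, SE 0.14, limma adjusted p = 0.953). The groups were separated by 0.26 between the nearest arrays, and the difference ran from 0.49 without knockout 3 to 0.67 without wild type 5. Other Racgap1 probe sets differed by 0.28, again without overlap, and by -0.04 in a dim one.

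Kif23, the kinesin of centralspindlin, differed by 0.45, with 0.28 and -0.07 for its remaining probe sets. Anln, or anillin, a scaffold of the contractile ring, read 6.92, 6.55 and 7.31 in knockout arrays, against 6.54, 6.71 and 6.30 in wild-type arrays. Knockouts 1 and 3 were above all wild types and knockout 2 was not, a difference of 0.41 (SE 0.21). The other Anln probe set differed by 0.12, with knockout 3 the highest and knockout 1 the lowest array. Ect2, which activates RhoA for the contractile ring, differed by 0.15, Cep55, of the midbody, by 0.13 and Kif20a, a kinesin of the central spindle, by 0.20. Ect2 and Cep55 were below 0 without knockout 3, at -0.13 and -0.09.

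The chromosome proteins Mki67 and Top2a, both in wide use as proliferation markers, lay above 0 and below the member median of 0.29. Mki67 read 12.09, 12.20 and 12.17 in knockout arrays, against 11.94, 11.81 and 12.11 in wild-type arrays. Wild type 6 reached into the knockout range, and the difference was 0.20 (95% interval -0.08 to 0.48). Knockout 3 was not the highest array here. Top2a, the topoisomerase that untangles chromosomes, read 9.51, 9.21 and 9.71 in knockout arrays, against 9.02, 9.18 and 9.40 in wild-type arrays. The groups overlapped at knockout 2 and wild type 6, and the difference was 0.27 (SE 0.17). Its 2 dimmer probe sets differed by -0.21 and -0.07.

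Taking every probe set of the members, 68 of 82 lay above 0 with a median of 0.24, against 50.4% and a median of 0.0018 over all 45037 probe sets tested. None passed (0 of 82; smallest adjusted p = 0.991; 0% of all probe sets passed), and 10 had an unadjusted p under 0.05, or 12.2%, against 4.15% of all (2.29% higher and 1.85% lower in knockout). Groups did not overlap for 12 member probe sets, 11 with knockout above and 1 below, against 4.93% and 4.76% of all and 9.69% in both directions together. Of the 64 brighter than the median probe set, 57 lay above 0 with a median of 0.28, and knockout 3 was the highest array for 54. Of the 18 dimmer ones 11 lay above 0 with a median of 0.05, and knockout 3 was highest for 3. Among the 25 members with several probe sets, all probe sets had the same sign for 13. No detection call was used, so dim probe sets may be at background.

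**Figure D4:**
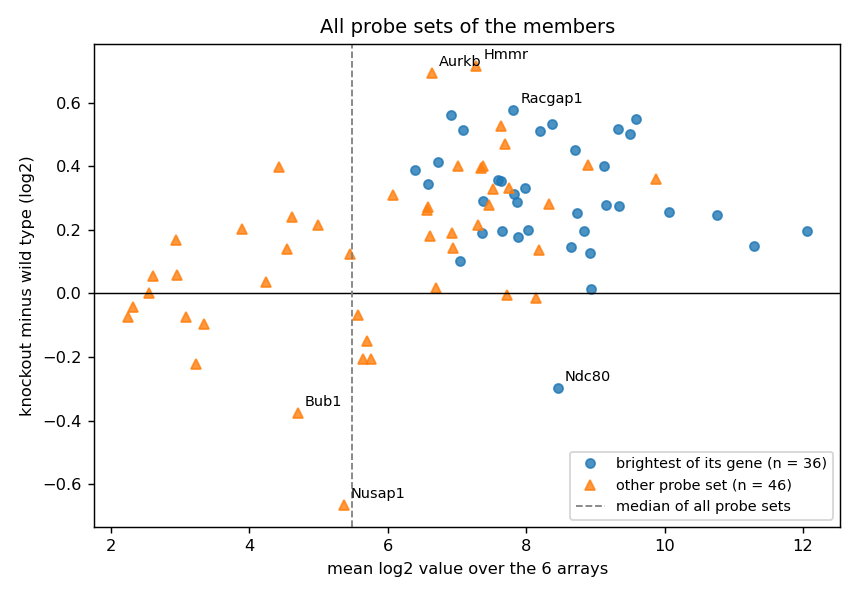
Difference of each of the 82 member probe sets, knockout minus wild type (log2), against its mean log2 value over the 6 arrays; circles are the brightest probe set of each gene, triangles the others, and the dashed line is the median of all probe sets. Right of the line 57 of 64 lie above 0, and left of it 11 of 18.

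Mitosis genes outside the set leaned the same way. Of 101 measured, 89 lay above 0 with a median of 0.18, and 0 passed. At an unadjusted p under 0.05 there were 11 (10.9%), all higher in knockout, against 4.71% of all genes and 2.69% on the higher side. Their levels were 0.12, -0.09 and 0.30 in knockout arrays, against -0.13, -0.01 and -0.14 in wild-type arrays, with knockout 3 highest for 60 genes (59.4%). The median was 0.09 without knockout 3 and 0.30 without knockout 2. The count at an unadjusted p under 0.05 was 1 without knockout 3, 22 without knockout 2 and 5 after cyclic loess. Of all 18194 genes, 662, 885 and 808 lay under that p in these settings. All 14 subunits and regulators of the anaphase-promoting complex lay above 0 (median 0.14), as did 15 of 16 other kinesin and spindle genes (0.29), 23 of 25 other kinetochore genes (0.17), 9 of 10 other checkpoint genes (0.23) and 6 of 8 condensin genes (0.10).

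By unadjusted p the leading ones were Ncaph, a condensin subunit, at 0.52 (SE 0.12), Zw10 and Zwilch, both of the RZZ complex that serves the spindle checkpoint, at 0.37 (SE 0.12) and 0.39 (SE 0.14), and Cdc23, a subunit of the anaphase-promoting complex, at 0.34 (SE 0.12). None passed limma's test, and their adjusted p was 0.953.

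DNA replication genes, which peak earlier in the cycle, gave other values. Of 46 measured, 19 lay above 0 with a median of -0.04, 0 passed, and 0 had an unadjusted p under 0.05. Levels were -0.04, -0.10 and 0.09 in knockout arrays, against 0.08, 0.06 and -0.14 in wild-type arrays, so the genotypes overlapped. Knockout 3 was the highest array for 12 of the 46 (26.1%), against 15.2% of all genes. The difference between this list and the members was not tested. The leading genes were Rpa1, a subunit of the single-strand binding protein, at 0.30 (SE 0.13), the clamp loader subunits Rfc2 and Rfc3 at -0.29 (SE 0.13) and 0.32 (SE 0.16), and the DNA ligase Lig1 at 0.38 (SE 0.19). In promoter windows of these genes, TTTGAA was in 6 of 42 (14.3%) and CCAAT in 22 (52.4%), and in those of the other mitosis genes in 39 (41.9%) and 58 (62.4%) of 93.

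Regulators of the programme (E2F and DREAM subunits, NF-Y, G1 cyclins and inhibitors of cyclin-dependent kinases) had a median of -0.02, with 16 of 39 above 0 and 0 passing. Cdkn1c, the inhibitor p57, was at -0.79 (SE 0.30), without overlap between the groups, at 6.28 ± 0.59 in knockout arrays, against 7.07 ± 0.26 in wild-type arrays (SD, n = 3 each). The antiproliferative gene Btg1 was at -0.26 (SE 0.12), also without overlap, the G1 kinase Cdk6 at -0.37 (SE 0.19) and cyclin D1, Ccnd1, at 0.29 (SE 0.16). None of the 4 passed (limma adjusted p = 0.953).

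**Figure D5:**
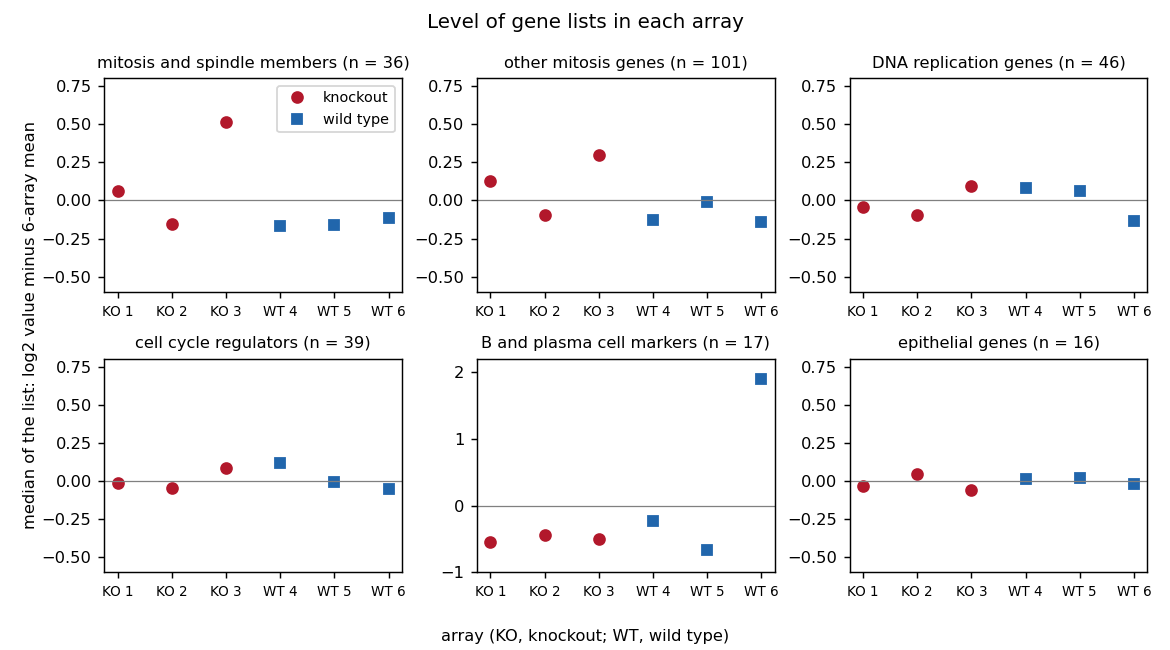
Level of 6 gene lists in each array, as the median over the list's genes of the log2 value minus the 6-array mean; circles are knockouts (left) and squares wild types (right), and the panel of B and plasma cell markers has a wider scale. Knockout 3 is highest for both mitosis lists and, at 0.09 against 0.08 in wild type 4, for replication genes. Replication genes and regulators stay within 0.15 of 0, and wild type 6 stands at 1.90 for the B and plasma cell markers.

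Markers of lymphoid tissue, which can hold dividing germinal centre cells, stood high in wild type 6. B and plasma cell markers stood at -0.55, -0.45 and -0.49 in knockout arrays, against -0.23, -0.66 and 1.90 in wild-type arrays, with all 17 measured markers below 0, and germinal centre markers at -0.23, -0.31 and -0.35 against -0.03, -0.11 and 0.76, with 8 of 9 measured markers below 0. Cd79a, a part of the B cell receptor, read 4.71, 4.78 and 5.20 in knockout arrays, against 6.06, 5.15 and 8.71 in wild-type arrays. The member level of wild type 6 was -0.11, close to the other wild types. Without wild type 6 the median difference of the members was 0.29, and with the B and plasma cell level as a covariate it was also 0.29. Wild type 6 dominates that covariate, so these settings are nearly the same check. The part of lymphoid cells in the difference was not tested.

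Knockout 3, the array with the highest mitotic level, was between the other knockouts for B and plasma cell markers. It was below them for germinal centre markers and for macrophage and dendritic cell markers. For T cell and intraepithelial lymphocyte markers and for fibroblast markers it was above them. T cell and intraepithelial lymphocyte markers stood at -0.33, -0.51 and 0.01 in the knockouts, against -0.04, 0.22 and 0.61 in the wild types, with 15 of 16 below 0. Fibroblast markers stood at -0.16, -0.41 and -0.06, against -0.05, -0.09 and 0.58 in the wild types, with 10 of 12 below 0. Macrophage and dendritic cell markers stood at -0.21, 0.0027 and -0.23, against -0.21, -0.47 and 0.82 in the wild types, with 5 of 10 below 0. The part of these cells in the level of knockout 3 was not tested. Epithelial genes ranged from -0.06 to 0.04 over the knockout arrays, against -0.02 to 0.02 over those of wild type. Epcam, an adhesion protein of epithelial cells, read 13.63 ± 0.11 in knockout arrays, against 13.65 ± 0.03 in wild-type arrays (SD, n = 3 each). Scan and hybridisation batches were not analysed here, and whether one moved with knockout 3 was not tested.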

How the data were processed

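Expression was measured on 6 arrays of unsorted colon epithelium, 3 of knockout and 3 of wild-type pools. The deposited values are log2 expression values that the authors made with RMA, which corrects background, normalizes by quantiles and summarises probes; RMA is named in the submitters' processing notes without a version, and the scale follows from the values (1.78 to 14.4). Per the labels' protocols, the input of the NuGEN amplification was 30 ng of RNA, which can read low transcripts unevenly. Arrays have no read depth; their number limits the precision (median 95% half-interval of a member 0.49, of all genes 0.36).

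Each gene took its brightest probe set among those with 1 symbol (18194 genes); all 45037 probe sets other than 64 controls were also fitted. The contrast was fitted in R 4.3.3 by limma 3.58.1 (two-sided, no covariate, no filter), with Benjamini-Hochberg adjustment over all genes or probe sets and a threshold of 0.05. Each array is its own pool, so p-values rest on the spread of pools. The fit was tested on simulated data in which genes varied independently and the differences put in were larger than that of any member. That test does not show how the fit treats differences as small as those of the members. Per-array values are given for members whose groups did not overlap, for the 8 with the smallest unadjusted p and for Mki67, Foxm1, Cdk1, Plk1 and Top2a; further probe sets and Aurka, Cdc20, Ndc80 and Kif2c were chosen after their values were seen. Other lists name up to 4 genes by unadjusted p. Members and lists were chosen with earlier results of these data known, so lists were described by counts and medians, without a test. Promoter motifs were counted in RefSeq windows of GRCm38.p6 with Python 3.11.15. Alternatives covered cyclic loess, brighter features only, robust estimation with an intensity trend, weighted arrays, the B and plasma cell level as a covariate, averaged probe sets per gene, dropping _x_at and _s_at probe sets, and leaving out each array; leaving out knockout 3 and wild type 6 together was chosen after seeing the data.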

Additional observations from a re-analysis of the deposited data

How the results depend on the processing

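No member passed under any of the 14 alternatives. Of 502 recomputed member differences 480 kept their sign and 22 did not, over 10 members. The count of genes passing over all genes was 0 to 3 when single arrays were left out, 5 with the B and plasma cell level as a covariate (Lrg1, Pla2g2a, Mfap3l, Plscr2 and Vav3) and 1 without knockout 3 and wild type 6 (Lrg1); that of probe sets was 0 to 3 and, with the covariate, 2 (Lrg1 and Pla2g2a). Without wild type 6 the 3 genes were Lrg1, Pla2g2a and Vav3 and the 3 probe sets those of Lrg1, Rgcc and Pla2g2a. None of these genes is a member, and they are named because their values were seen. The median of the members stayed above 0, from 0.14 without knockout 3 to 0.44 without knockout 2, and was 0.22 after cyclic loess, 0.21 with averaged probe sets per gene and 0.13 without knockout 3 and wild type 6, where 30 of 36 lay above 0. In that last setting all genes had a median of -0.03, regulators -0.13, Bub1b -0.10, Cdk1 -0.19, Cenpa -0.034, Ect2 -0.25 and Kif2c -0.54. With averaged probe sets Bub1 was -0.017, Nusap1 -0.21 and Top2a -0.00066. Cdk1 was -0.052 after cyclic loess and -0.049 with the covariate, and Kif2c -0.11 with the covariate. Leaving out single arrays, Cdk1 ran from -0.14 to 0.27, Cep55 from -0.089 to 0.30, Ect2 from -0.13 to 0.40, Foxm1 from -0.054 to 0.22 and Kif2c from -0.34 to 0.72. The median of replication genes changed sign without knockout 2, wild type 4 or wild type 5 (range -0.09 to 0.03), and that of regulators ran from -0.06 to 0.05. The cause of these changes was not tested. No paired analysis was possible because the groups share no replicate numbers. With 3 pools per genotype, a typical member's interval spanned 0.49 either side of its difference, before adjustment for the number of genes tested.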
